A study of Mus musculus with 36 samples.

Results

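The 9 genes described here encode chains of the fibrillar collagens (Col1a1, Col1a2, Col3a1, Col5a1 and Col5a2) and the enzymes that crosslink them (Lox, Loxl1, Loxl2 and Loxl3). They were taken by symbol from a count table of 46078 Ensembl mouse genes, of which 22219 had at least 1 count in all libraries together. The choice was made with earlier results of these data known, among them the levels of Col1a1, Col1a2, Col5a1 and Lox in lots 6, 7 and 8, so the differences of these genes between lines are descriptions and not independent tests. The question put to them was whether the collagen chains and the crosslinking enzymes moved together. The table holds 36 libraries made by BRB-seq, in which the 3′ ends of polyadenylated transcripts are barcoded by sample, pooled and counted, from transformed mouse astrocytes of the genotype Nf1-/- DNp53. Nf1 encodes neurofibromin, a brake on Ras, and DNp53 is a dominant-negative form of the tumour suppressor p53. All lines carried both alterations and all were grown in DMEM/F12 with 10% fetal bovine serum. Each of 5 lots, numbered 6, 7, 8, 11 and 12 and derived from different litters per the series' design text, gave 1 female and 1 male line, with 3 libraries of each line in lots 6 and 12 and 4 in lots 7, 8 and 11. Untransformed astrocytes were not analysed here, and the age of the mice and the construct that carried DNp53 are not given in the sources used here.

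Fibrillar collagens are made as procollagen chains that are hydroxylated, wound into a triple helix, exported, trimmed at their ends and assembled into fibrils outside the cell. Type I collagen combines chains from Col1a1 and Col1a2, type III is built from Col3a1 chains alone, and type V, made from Col5a1 and Col5a2 chains, starts and limits the growth of type I fibrils. Lysyl oxidases are copper-dependent amine oxidases that oxidise lysine side chains of collagen and elastin, after which neighbouring molecules become covalently crosslinked. In the healthy brain, fibrillar collagen is found mainly in the meninges and around larger vessels.

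RefSeq gives a start region on GRCm38.p6 for 3 of the 9 genes (Col1a2, Col3a1 and Col5a1), which are shown so that the proximal promoter of the chain whose level varied most among the lines, Col1a2, can be set beside those of a type III and a type V chain. The 250 bases before each start are written 5′ to 3′ on the + strand, which is the strand of all 3 genes. They lie at chr6:4505368-4505617 for Col1a2, chr1:45311288-45311537 for Col3a1 and chr2:27886175-27886424 for Col5a1. Capitals mark matches to 5 motifs searched on both strands, namely the letters CCAAT, the GC box GGGCGG, the TATA motif TATAAA, the TEAD motif GGAATG and the AP-1 motif TGANTCA.
Col1a2: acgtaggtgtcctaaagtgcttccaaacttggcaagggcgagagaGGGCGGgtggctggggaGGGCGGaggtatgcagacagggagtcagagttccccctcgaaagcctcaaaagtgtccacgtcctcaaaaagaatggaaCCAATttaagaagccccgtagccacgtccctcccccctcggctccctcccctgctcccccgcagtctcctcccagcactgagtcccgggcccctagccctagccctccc
Col3a1: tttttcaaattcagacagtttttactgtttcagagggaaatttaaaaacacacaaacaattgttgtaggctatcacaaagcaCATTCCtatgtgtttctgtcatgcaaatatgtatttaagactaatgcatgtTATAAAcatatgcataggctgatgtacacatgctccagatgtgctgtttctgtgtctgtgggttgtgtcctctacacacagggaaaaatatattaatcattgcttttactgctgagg
Col5a1: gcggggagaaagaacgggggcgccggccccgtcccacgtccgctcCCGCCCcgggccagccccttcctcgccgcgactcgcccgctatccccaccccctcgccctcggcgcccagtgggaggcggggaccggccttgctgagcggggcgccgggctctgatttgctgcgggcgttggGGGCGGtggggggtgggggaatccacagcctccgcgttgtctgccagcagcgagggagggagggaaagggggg
The Col1a2 window, at 62% G and C, held CCAAT at -109 and GGGCGG at -205 and -188, counted from the start. The Col3a1 window, at 35.2% G and C, held TATAAA at -117 and the reverse complement of the TEAD letters, CATTCC, at -168. The Col5a1 window was the richest of the 3 in G and C, at 76.4%, and held GGGCGG at -73 and its reverse complement CCGCCC at -205. Over all 32851 windows of the same length, the median was 52.4% G and C. CCAAT was found in 33.9% of them, GGGCGG in 32.7%, TATAAA in 12.4%, GGAATG in 12.6% and TGANTCA in 6.75%. Each motif matched in these 3 windows is therefore also found in at least 12.4% of all windows, and a match is a description of letters, not a site.

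The libraries held 4358098 to 7562901 counts each, so a floor of 3 counts equals 0.397 to 0.688 CPM, the unit of counts relative to library size, on unscaled totals. All 9 genes were counted in all 36 libraries and passed the filter on low counts. They held 1315 counts in all libraries together for Col3a1, the fewest, and 49376 for Col5a2, the most. Whether a line's libraries came from separate cultures is not given in the labels, so tests within a lot set the difference between 2 lines against the scatter of libraries within lines, pooled over all 10 lines, which may be technical, and a difference of sex cannot be told apart from a difference between single lines. The 3′ end of Loxl3 overlaps that of Htra2 on the opposite strand by 1297 bases, and the sources used here do not state whether counting used the strand, so the values of Loxl3 are uncertain. Levels are CPM on library sizes scaled by the trimmed mean of M values (TMM). Counts of 3′ ends are not per length, so a level is compared here between lines and not between genes.

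The labelled cell type was checked against its markers, and 5 of 12 astrocyte markers averaged over 1 CPM. The 12 together summed to 110.5 to 243 CPM in the lines, most of it Gja1, a gap junction gene. The others over 1 CPM were Sox9, Glul, Slc1a3 and Aldoc. Under 1 CPM as means over the lines were Aldh1l1 at 0.829, Slc1a2 at 0.557, Aqp4 at 0.258 and S100b at 0.239 CPM. Fgfr3 at 0.213, Gfap at 0.135 and Atp1b2 at 0.0324 CPM were lower still. Of 12 markers of brain fibroblasts, 5 averaged over 1 CPM, and the sum of 95.1 to 146 CPM was mostly Prrx1. Besides Prrx1 these were Twist1 at 8.53, Foxc1 at 6.41, Tbx15 at 6.04 and Foxc2 at 2.80 CPM. Tbx18, Dcn, Pdgfra, Crabp2, Dpep1 and Slc6a13 averaged under 1 CPM, and Lum was at 0 in all libraries. Of 12 pericyte and smooth muscle markers, 3 averaged over 1 CPM, with sums of 1353 to 14828 CPM that came almost wholly from the contractile gene Acta2, since without it they were 11.0 to 60.0 CPM, and Kcnj8, Abcc9, Anpep and Vtn were at 0 in all libraries. Markers of endothelium summed to 2.13 to 17.1 CPM, nearly all of it Flt1 (0 to 0.406 CPM without it), with Tie1, Cldn5 and Emcn at 0. Those of microglia and macrophages summed to 3.41 to 12.2 CPM, with Itgam, C1qa and Trem2 at 0. In bulk RNA, a smaller share of cells that express a gene and less RNA per cell cannot be told apart.

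The genes differed widely among the 10 lines. Line means of Col1a2 spanned 62.0-fold, those of Col1a1 27.4-fold, Lox 25.6-fold, Loxl2 14.8-fold and Col3a1 13.1-fold. Narrower ranges were seen for Loxl1 with 6.33-fold, Col5a1 with 4.58-fold, Col5a2 with 3.81-fold and Loxl3 with 2.41-fold. The median range of the 9 genes was 3.71 on the log2 scale, against 1.18 over all 12173 genes tested, and 93.4% of those genes had a smaller range than Col1a2 but 54.1% than Loxl3. All 9 differed among the lines at an adjusted p under 0.05 (edgeR quasi-likelihood test), as did 51.8% of all genes, and since levels were in view when the genes were chosen nothing is read from that count.

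**Figure D1:**
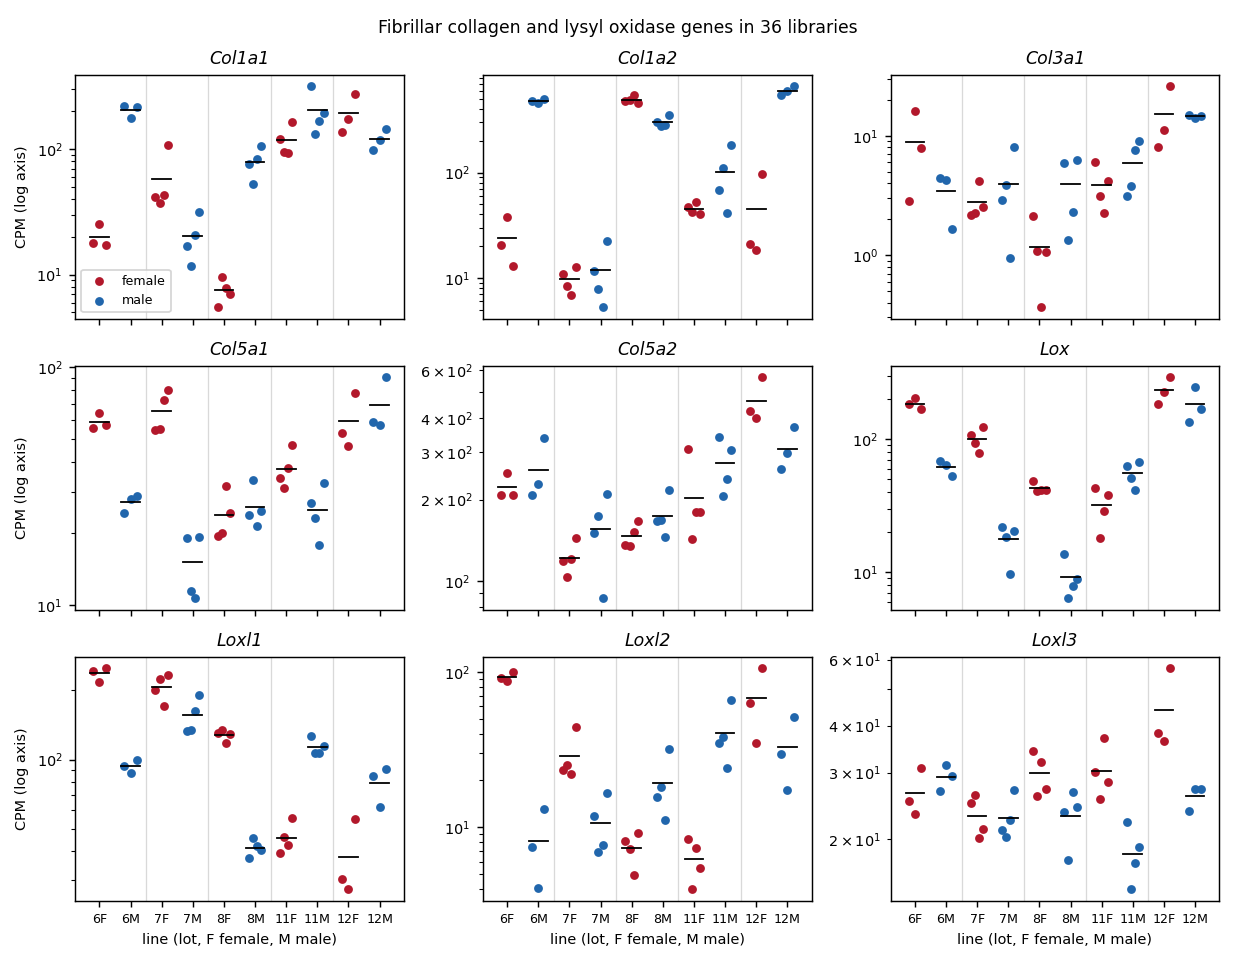
Each panel plots 1 gene, with CPM on a log axis against the 10 lines (lot number, F female, M male). Points are single libraries and bars are line means, and the panels for Col1a1, Col1a2, Lox and Loxl2 span at least 14.8-fold between their highest and lowest line means.

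Counts of differences between the female and the male line of each lot were read beside the share of all genes called, since these contrasts were in view when the genes were chosen. A gene is called here at an adjusted p under 0.05 over 12173 genes (edgeR quasi-likelihood test, Benjamini-Hochberg). In lot 6, the female line had 4 of the 9 genes higher and 2 lower, where 27.6% of all genes were called, 13.5% higher and 14.0% lower. Lot 7 had 4 higher and 0 lower, with 10.8% of all genes called, 5.41% higher and 5.42% lower. Lot 8 had 2 higher and 2 lower, with 11.4% of all genes called, 6.41% higher and 4.99% lower. Lot 11 had 1 gene higher, Loxl3, and 3 lower in the female line, where 4.33% of all genes were called, 1.52% higher and 2.81% lower. In lot 12, 1 was higher and 2 lower, with 3.80% of all genes called, 1.74% higher and 2.06% lower. Libraries with the same number deviated together most clearly in lot 12, where all 3 pairs correlated at 0.131 to 0.227 over all genes. The replicate 4 pairs of lots 7, 8 and 11 did so more weakly, at 0.075, 0.089 and 0.092. With the replicate number as a block, 6 of the 9 genes were called in lot 12, with Col1a1, Col5a2 and Loxl2 added, and 5.48% of all genes. Over the 45 comparisons of a gene in a lot, 21 were called, 7 of 25 for the collagen chains and 14 of 20 for the lysyl oxidases, and in 22 the female and male libraries did not overlap, as in 20.3% of such comparisons over all genes. Lot 6 had 6 of the 9 genes without overlap (42.6% of all genes), lot 7 had 4 (16.1%), lot 8 had 5 (16.0%), lot 11 had 3 (10.3%) and lot 12 had 4 (16.5%). The difference between the female and the male line itself differed among lots for 7 of the 9 genes, and for 29.9% of all genes.

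**Figure D2:**
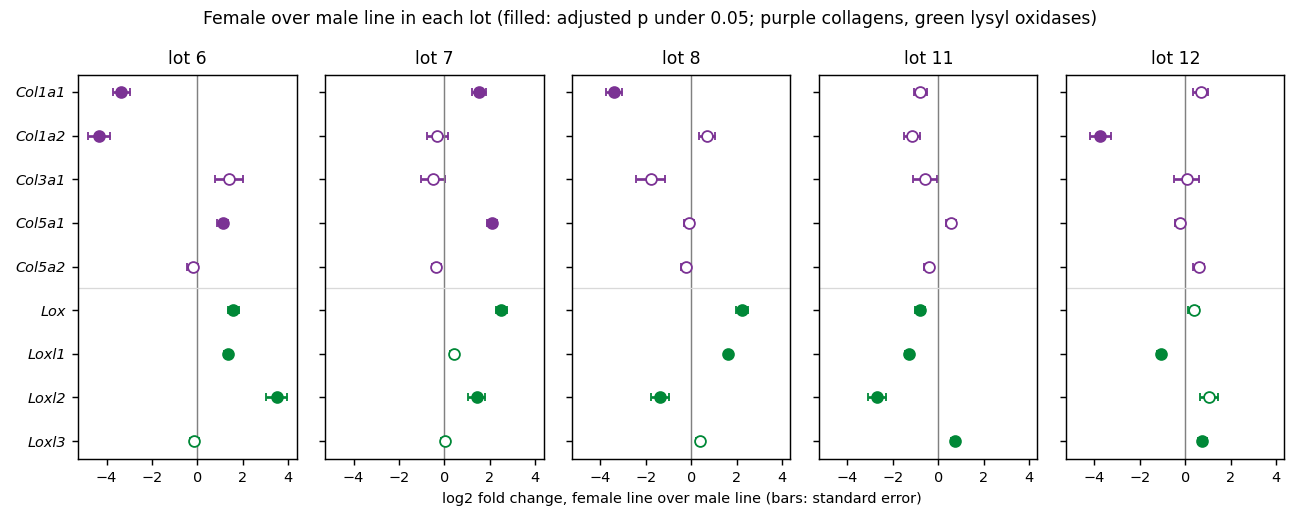
Log2 fold change of the female over the male line in each of 5 lots, with standard errors, for the 5 collagen genes (purple) and the 4 lysyl oxidase genes (green). Filled circles are adjusted p under 0.05; Col1a1 and Col1a2 are both low in lot 6, at -3.35 and -4.34, and part in lots 7, 8 and 12, and Loxl2 runs from 3.49 in lot 6 to -2.71 in lot 11.

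Col1a1 (chromosome 11, 94936224 to 94953042, GRCm38, + strand, ENSMUSG00000001506), which encodes the chain present in 2 copies in the usual type I molecule, was low in the female lines of lots 6 and 8. In lot 6 it was at 18.0, 25.2 and 17.2 CPM in the female libraries, against 221, 178 and 216 CPM in the male libraries. Lot 8 had 5.49, 9.60, 7.83 and 7.04 CPM in the female line and 76.6, 53.2, 82.8 and 106 CPM in the male line. In neither lot did the lines overlap, and Col1a1 fell by 3.35 ± 0.36 in lot 6 and by 3.41 ± 0.35 in lot 8 on the log2 scale (SE), a 10.2-fold and a 10.6-fold lower level. Lot 7 ran the other way, with 41.6, 37.3, 42.8 and 108 CPM in the female and 16.9, 11.7, 20.6 and 31.4 CPM in the male libraries, again without overlap. There Col1a1 rose by 1.51 ± 0.30, and by 1.00 without replicate 4 of the female line, the highest of its 4 libraries. In lot 11 it was at 119, 94.4, 92.7 and 163 CPM in the female and 320.4, 133, 166 and 193 CPM in the male line, and in lot 12 at 137, 173 and 274 CPM in the female and 98.8, 118 and 145 CPM in the male line. These lines overlapped and neither difference was called, at -0.79 ± 0.28 in lot 11 and 0.68 ± 0.32 in lot 12. The block by replicate number gave 0.65 in lot 12, with an adjusted p of 0.0494 (edgeR). The lot 11 difference was called with the block (adjusted p 0.00633), without the replicate 4 libraries (0.0155) and with no filter (3.97e-06, edgeR). From the highest line mean, 205 CPM in lot 6 male, to the lowest, 7.49 CPM in lot 8 female, 7 of the 9 pairs of neighbouring lines had overlapping libraries, and the levels broke between lot 7 female and lot 7 male and between lot 6 female and lot 8 female.

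Col1a2 (chromosome 6, 4504814 to 4541544, + strand, ENSMUSG00000029661), which encodes the other chain of type I collagen, was high in lines of different sexes in different lots. Lot 6 had 20.4, 37.9 and 13.0 CPM in the female and 477, 461 and 502 CPM in the male libraries. In lot 12 it was at 20.9, 18.4 and 97.0 CPM in the female and 545, 591 and 670.4 CPM in the male libraries. Male libraries were thus far above all female libraries in both lots, and Col1a2 fell by 4.34 ± 0.47 in lot 6, 20.2-fold, and by 3.74 ± 0.45 in lot 12, 13.3-fold. Replicate 3 of the lot 12 female line was well above the other 2, and without it the log2 difference was -4.94. Lot 8 held the reverse order, with 480.2, 491, 550.5 and 455 CPM in the female and 304, 279.7, 284 and 353 CPM in the male line. Those libraries did not overlap, but the difference of 0.70 ± 0.35 was not called, while it was in the fit of the lot 8 libraries alone (adjusted p 5.76e-05, edgeR), with no filter (1.87e-06, edgeR) and with limma voom (0.0340). Both lines of lot 7 were low, at 10.9, 8.40, 6.87 and 12.6 CPM in the female and 11.7, 7.81, 5.24 and 22.6 CPM in the male libraries. Lot 11 lay between, at 47.0, 42.4, 52.2 and 40.5 CPM in the female and 68.2, 111, 41.3 and 182 CPM in the male libraries, which overlapped, and neither lot was called. The lot 11 difference of -1.15 ± 0.36 passed with no filter (adjusted p 7.45e-16), in the fit of that lot alone (0.0451) and without replicate 3 of the male line (0.0165, edgeR). In lot 11, the median of the 13 expressed genes within 2 Mb of Col1a2 was also lower in the female line, at -0.63. The median gene of chromosome 6 was at 0.011, and the part of this neighbourhood in the Col1a2 difference was not tested. The 3 highest lines, lot 12 male, lot 8 female and lot 6 male at 602, 494 and 480 CPM, stood above all the others without overlap, followed by lot 8 male at 305 CPM, which also stood apart from the next line, while the other 7 pairs of neighbours overlapped.

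The 2 chains of type I collagen did not keep a fixed proportion between lines. The log2 ratio of Col1a2 to Col1a1 counts averaged 6.07 ± 0.32 in the lot 8 female line (SD, n = 4) and 1.97 ± 0.30 in the lot 8 male line (n = 4). It was -2.48 ± 0.89 in the lot 12 female line and 2.33 ± 0.13 in the lot 12 male line (n = 3 each). The lines of each of these lots thus stood on different sides or far apart. The lot 6 ratio was 0.12 ± 0.50 for the female and 1.23 ± 0.14 for the male line (n = 3 each), and that of lot 7 was -2.46 ± 0.53 for the female and -0.89 ± 0.72 for the male line (n = 4 each). Lot 11 had -1.33 ± 0.50 for the female and -1.15 ± 1.13 for the male line (n = 4 each), a difference within the spread of libraries. The ratio spanned 374-fold over the 10 lines, while its median SD within a line was 0.50 on the log2 scale. Between lines, Col1a1 and Col1a2 had a Pearson r of 0.18 over 10 lines. This r depended on the lots included, at -0.049 to 0.67 with each lot left out in turn. Col5a2 over Col5a1, the same ratio for type V, spanned 5.82-fold, from 0.90 ± 0.17 in lot 7 female to 3.44 ± 0.30 in lot 11 male on the log2 scale (SD, n = 4 each).

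**Figure D3:**
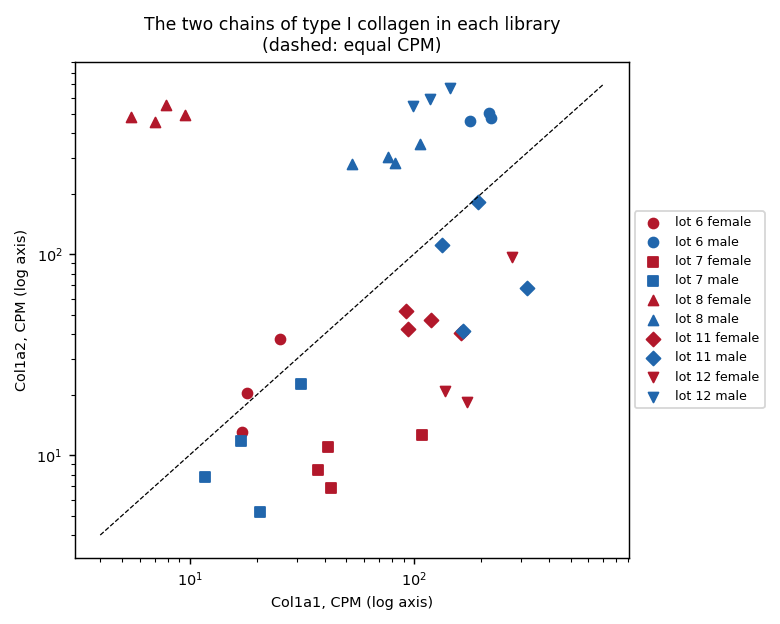
Col1a2 against Col1a1 in each of the 36 libraries, in CPM on log axes, with colour for sex and shape for lot. The lot 8 female libraries lie alone at the upper left, at 5.49 to 9.60 CPM of Col1a1 and 455 to 550.5 CPM of Col1a2, and the dashed line of equal CPM is a guide only, since the genes' levels are not per length.

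Col3a1 (chromosome 1, 45311538 to 45349706, + strand, ENSMUSG00000026043), the chain of type III collagen, had the fewest counts of the 9 genes and was called in 0 of 5 lots. Lot 12 had 8.08, 11.1 and 26.4 CPM in the female and 14.8, 14.1 and 14.7 CPM in the male libraries. Lot 8 had 2.15, 1.09, 0.364 and 1.06 CPM in the female and 5.91, 1.35, 2.30 and 6.24 CPM in the male libraries, with the lowest female library below the floor of 3 counts. The libraries overlapped in all 5 lots, and log2 differences ranged from -1.79 in lot 8 to 1.38 in lot 6, with standard errors of 0.53 to 0.63. Other settings called it: in lot 6 library totals (adjusted p 0.0466) and no filter (0.0326, edgeR), and in lot 8 DESeq2 (0.0296) and no filter (0.00801, edgeR). Leaving out replicate 1 of the female line called it in lot 6 (adjusted p 0.0315) and in lot 8 (0.0408), as did leaving out replicate 2 of the male line in lot 8 (0.0342, edgeR). Of the 9 neighbouring pairs in the order of line means, from 15.2 CPM in lot 12 female to 1.16 CPM in lot 8 female, 8 overlapped. Col5a2 (chromosome 1, 45374321 to 45503282, − strand, ENSMUSG00000026042), the second type V chain, lies 24614 bases beyond the end of Col3a1 on the other strand. It also was called in 0 of 5 lots and varied least of the collagen chains. Its line means were highest in lot 12, with 424, 399 and 569 CPM in the female and 259.9, 297 and 369 CPM in the male libraries, which did not overlap. Lot 7 female was the lowest line, and lot 7 had 119, 104, 120.3 and 145 CPM in the female and 150.4, 175, 86.2 and 209 CPM in the male libraries, which overlapped. The lot 12 difference of 0.59 ± 0.24 was not called (adjusted p 0.189, and 0.0259 with the replicate block, edgeR). With no filter Col5a2 was called in lot 12 (adjusted p 0.00296) and lower in lot 11 (0.0246, edgeR). Lot 12 female stood apart from the next line, and the other 8 neighbouring pairs overlapped. Over the 10 lines, Col3a1 and Col5a2 had an r of 0.79.

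Col5a1 (chromosome 2, 27886425 to 28039514, + strand, ENSMUSG00000026837), the chain common to the forms of type V collagen, was higher in the female line in lots 6 and 7. Lot 6 had 55.5, 64.1 and 57.2 CPM in the female and 24.4, 27.8 and 28.8 CPM in the male libraries. Lot 7 had 54.7, 54.8, 72.6 and 80.5 CPM in the female and 19.1, 11.4, 10.6 and 19.4 CPM in the male libraries. All female libraries exceeded all male libraries in both lots, and Col5a1 rose by 1.12 ± 0.24 in lot 6 and by 2.11 ± 0.22 in lot 7. In lot 6, the median gene of chromosome 2 was itself 0.33 higher in the female line, and the median of the 55 expressed genes within 2 Mb of Col5a1 was 0.47 higher; the part of this in the Col5a1 difference was not tested. The lines overlapped in the other 3 lots, where the log2 difference was not called, at -0.11 ± 0.22 in lot 8, 0.57 ± 0.21 in lot 11 and -0.23 ± 0.24 in lot 12. Line means of 69.3 CPM in lot 12 male, 65.7 in lot 7 female, 59.3 in lot 12 female and 58.9 in lot 6 female overlapped each other. Lot 11 female followed at 37.4 CPM, below all libraries of lot 6 female, its neighbour, but with its replicate 4 at 47.0 CPM just above replicate 2 of lot 12 female at 46.8 CPM. Lot 7 male was the lowest, at 15.1 CPM, apart from its neighbour, and 6 of the 9 neighbouring pairs overlapped.

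Lox (chromosome 18, 52516067 to 52529867, − strand, ENSMUSG00000024529), the founding member of the lysyl oxidase family, was higher in the female line in lots 6, 7 and 8. Lot 6 had 183, 202 and 168 CPM in the female and 68.5, 63.7 and 52.8 CPM in the male libraries. Lot 7 had 108, 93.3, 78.3 and 123 CPM in the female and 22.0, 18.5, 9.69 and 20.5 CPM in the male libraries. Lot 8 had 48.4, 40.6, 41.3 and 41.2 CPM in the female and 13.7, 6.36, 7.84 and 8.91 CPM in the male libraries. No female library overlapped the male libraries of its lot, and the rise of Lox was 1.58 ± 0.26 (3.00-fold) in lot 6, 2.51 ± 0.24 (5.68-fold) in lot 7 and 2.22 ± 0.26 (4.67-fold) in lot 8. In lot 11 the order was reversed, with 43.0, 17.9, 28.7 and 38.2 CPM in the female and 62.6, 51.4, 41.3 and 67.6 CPM in the male libraries. Replicate 1 of the female line lay within the male range there, and Lox fell by 0.81 ± 0.23, a call that was lost when any of 4 libraries was left out (replicate 2 or 3 of the female line, or replicate 1 or 4 of the male line, at an adjusted p of 0.0914 to 0.167, edgeR). It was also lost in the fit of the lot 11 libraries alone (adjusted p 0.0578) and without all replicate 4 libraries (0.113, edgeR). Both lot 12 lines were high, with 184, 227 and 295 CPM in the female and 134, 245 and 169 CPM in the male libraries, and the difference of 0.37 ± 0.25 was not called. The lines of lot 12 and lot 6 female, at 182 to 235 CPM, overlapped each other and stood above lot 7 female at 101 CPM, which stood above the rest, and the other 7 neighbouring pairs overlapped.

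Loxl1 (chromosome 9, 58287738 to 58313186, − strand, ENSMUSG00000032334), an enzyme best known in mice for its role in elastic fibre upkeep, differed between the lines of 4 lots. Lot 6 had 244, 217 and 251 CPM in the female and 94.1, 87.6 and 99.2 CPM in the male libraries, and lot 8 had 130.5, 135, 118 and 129 CPM in the female and 37.1, 45.7, 42.1 and 40.4 CPM in the male libraries. Female libraries were higher without overlap in both, and Loxl1 rose by 1.34 ± 0.18 in lot 6 and 1.63 ± 0.16 in lot 8. The order was the opposite in lots 11 and 12. Lot 11 had 39.1, 45.8, 42.3 and 55.6 CPM in the female and 126, 107, 106 and 114 CPM in the male libraries, and lot 12 had 30.1, 27.2 and 55.2 CPM in the female and 85.1, 61.9 and 90.6 CPM in the male libraries. Male libraries were higher without overlap, and Loxl1 fell by 1.31 ± 0.16 in lot 11 and 1.08 ± 0.18 in lot 12, the second of which was not called in a fit of the lot 12 libraries alone (adjusted p 0.116, edgeR). In lot 7 the libraries, at 171 to 232 CPM in the female and 134 to 190.2 CPM in the male line, overlapped and the difference of 0.41 ± 0.15 was not called (adjusted p 0.0690, edgeR). It was called at an adjusted p of 0.0152 to 0.0471 under 5 other settings (no filter, the lot alone and the block with edgeR, DESeq2, and limma voom), and also without replicate 3 of the female (0.0400) or replicate 4 of the male line (0.0284, edgeR). Lot 12 female, the line with the most Lox, had the least Loxl1, at 37.5 ± 15.4 CPM (SD, n = 3). Of its 9 neighbouring pairs of lines, 7 overlapped, and the order broke between lot 11 male and lot 6 male and between lot 12 male and lot 11 female.

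Loxl2 (chromosome 14, 69609068 to 69695834, + strand, ENSMUSG00000034205), which crosslinks the type IV collagen of basement membranes and has been tied to invasion in tumours, showed both the largest rise and the largest fall among the lysyl oxidases. In lot 6 it was at 91.3, 86.8 and 99.9 CPM in the female libraries and 7.41, 4.07 and 13.0 CPM in the male libraries. Lot 11 had 8.36, 3.97, 7.30 and 5.43 CPM in the female and 34.9, 38.1, 23.9 and 65.6 CPM in the male libraries. The lines were far apart in both lots and in opposite directions: Loxl2 rose by 3.49 ± 0.44 in lot 6, 11.2-fold, and fell by 2.71 ± 0.39 in lot 11, 6.53-fold. In lot 6 the median gene of chromosome 14 was at a log2 fold change of -0.83 and the median of 25 expressed genes within 2 Mb of Loxl2 at -0.80, so Loxl2 was higher while its neighbourhood was lower. The median of chromosome 11, which holds Col1a1, was at -0.41 in the same lot, and its part in the fall of Col1a1 was not tested. Lot 7 had 23.5, 25.2, 22.0 and 43.9 CPM in the female and 11.7, 6.94, 7.62 and 16.5 CPM in the male libraries, and Loxl2 rose by 1.42 ± 0.37, a call lost without replicate 4 of the female line (adjusted p 0.0574, edgeR). Lot 8 had 8.11, 7.20, 4.91 and 9.15 CPM in the female and 15.6, 18.1, 11.1 and 31.9 CPM in the male libraries, and Loxl2 fell by 1.39 ± 0.39, a call lost without replicate 3 of the female line (adjusted p 0.0654) or replicate 4 of the male line (adjusted p 0.112, edgeR). That call was also lost without all replicate 4 libraries (adjusted p 0.0711, edgeR) and with limma voom (0.136). Neither of these lots had overlapping libraries. In lot 12 the 63.1, 34.9 and 106 CPM of the female libraries overlapped the 29.7, 17.3 and 51.5 CPM of the male libraries, and the difference of 1.05 ± 0.40 was not called (adjusted p 0.152, and 0.0109 with the replicate block, edgeR). All 9 neighbouring pairs in the order of line means overlapped, from 92.7 CPM in lot 6 female to 6.27 CPM in lot 11 female.

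Loxl3 (chromosome 6, 83034173 to 83052562, + strand, ENSMUSG00000000693), needed in mice for palate and spine development, varied least of the 9 genes. It was higher in the female line in lot 11, with 30.1, 25.6, 37.0 and 28.4 CPM in female and 22.1, 14.7, 17.2 and 19.0 CPM in male libraries, and in lot 12, with 38.3, 36.4 and 57.1 CPM in female and 23.7, 27.1 and 27.1 CPM in male libraries. Neither lot had overlapping libraries, and Loxl3 rose by 0.73 ± 0.17 in lot 11 and 0.75 ± 0.20 in lot 12. The lot 11 call was lost without replicate 3 of the female line (adjusted p 0.0525), and the lot 12 call without replicate 3 of the female line (adjusted p 0.220), replicate 1 of the male line (0.121) or replicate 2 of the male line (0.0606, edgeR). Loxl3 in lot 12 also missed the threshold with no filter (adjusted p 0.0759) and in the fit of that lot alone (0.209, edgeR). In lots 6, 7 and 8 the libraries overlapped, with differences of -0.15 ± 0.20, 0.02 ± 0.17 and 0.38 ± 0.17, none of them called. All 9 neighbouring pairs in the order of line means overlapped, from 43.9 CPM in lot 12 female to 18.3 CPM in lot 11 male. Its overlap with Htra2, at 5.56 CPM on average, touches all of these values.

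Across lots, with the libraries of each line summed and the lot in the model, 0 of the 9 genes and 0% of 12010 genes passed (edgeR quasi-likelihood test), while 841 of all genes had an unadjusted p under 0.05. Col1a2 came nearest on the lower side, at -1.76 ± 0.82 (log2, SE) with an adjusted p of 0.695 and a lower value in the female line in 4 of 5 lots. Lox was at 1.17 ± 0.49, with an adjusted p of 0.695 and a higher value in the female line in 4 of 5 lots. Col5a1 was at 0.67 ± 0.34 and Loxl3 at 0.33 ± 0.17, and the other 5 genes lay between -1.05 ± 0.84 for Col1a1 and 0.39 ± 0.90 for Loxl2. limma voom, run on the 36 libraries with line as a random effect, called 491 genes, 4.03% of those tested, among them Col1a2 (adjusted p 0.0103), Lox (0.0123) and Col5a1 (0.0467). That fit shares 1 within-line correlation among all genes. Its p-values can therefore be too small for genes that differ strongly among lines, as Col1a2 and Lox do. DESeq2 on the line sums called 60 genes and none of the 9. Adjusted p ranged over the alternatives from 0.0103 to 0.975 for Col1a2 and from 0.0123 to 0.975 for Lox.

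Genes that act on collagen before and after it leaves the cell were read from lists for each step. The folding and modification list holds prolyl and lysyl hydroxylases and chaperones, and 18 of its 20 genes passed the filter. Of these, 6 rose and 3 fell in the lot 6 female line, 5 rose and 0 fell in lot 7, 1 rose in lot 8, and 0 were called in lots 11 and 12. Its median log2 difference was 0.15 in lot 6 and 0.30 in lot 7, beside 0.063 and 0.0066 for all genes. P3h4, a partner of lysyl hydroxylase, fell by 2.37 ± 0.19 in lot 6, with 18.7 CPM in the female and 96.9 CPM in the male line. Plod3, a lysyl hydroxylase and glycosyltransferase, rose there by 1.05 ± 0.13, with 170.3 CPM in the female and 82.2 CPM in the male line. Serpinh1, the collagen chaperone HSP47, rose in lot 7 by 0.75 ± 0.13, with 546 CPM in the female and 326 CPM in the male line. Of 11 genes for procollagen export, 1 rose and 2 fell in lot 6, where 27.6% of all genes were called. Among those that fell was the cargo coat gene Sec24d, by 1.18 ± 0.31. In the other 4 lots 0 of the 11 were called.

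Of 8 genes that trim procollagen ends, 6 passed the filter, and the enhancer of procollagen C-proteinase Pcolce2 was called in 4 of 5 lots. It fell by 1.57 ± 0.17 in lot 6 and 1.74 ± 0.15 in lot 7, and rose by 1.16 ± 0.14 in lot 11 and 0.56 ± 0.16 in lot 12. Bmp1, the C-proteinase itself, rose by 1.20 ± 0.26 in lot 7, with 41.8 CPM in the female and 18.1 CPM in the male line. Of 20 fibril regulator genes, 15 passed the filter. The female line had 10 higher and 2 lower in lot 6, 5 higher and 2 lower in lot 7, and 4 higher and 1 lower in lot 8. It had 1 higher and 2 lower in lot 11, and 2 higher and 0 lower in lot 12. The shares of all genes called in these lots, in the same order, were 27.6%, 10.8%, 11.4%, 4.33% and 3.80%. The small leucine-rich proteoglycan genes parted in lot 6, where Fmod, encoding fibromodulin, averaged 277 CPM in the female and 1.77 CPM in the male line, a rise of 7.28 ± 0.38, while Bgn, encoding biglycan, averaged 29.0 CPM in the female and 397 CPM in the male line, a fall of 3.77 ± 0.37. Aebp1, whose product binds collagen, was lower in the female line in lot 6 (log2 -2.74 ± 0.30), lot 7 (-4.40 ± 0.28) and lot 8 (-1.83 ± 0.24) and higher in lot 12 (1.44 ± 0.26). Several genes of this list may have passed the filter through the line in which they were high, so its counts are not read as a shift of the list.

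Elastic fibre genes, whose elastin is the other substrate of lysyl oxidases, passed the filter in 14 of 15 cases. The one that did not was Eln, the elastin gene itself, at 0 CPM in 9 of the 10 lines and 0.0476 CPM in lot 6 female. In the female line 2 were higher and 3 lower in lot 6, 3 higher and 3 lower in lot 7, and 4 higher and 1 lower in lot 8. Lot 11 had 0 higher and 3 lower, and lot 12 had 1 higher and 1 lower. Of all genes, 27.6%, 10.8%, 11.4%, 4.33% and 3.80% were called in these lots, in the same order. Efemp1, encoding fibulin-3, fell by 5.17 ± 0.34 in lot 6, with 5.86 CPM in the female and 211 CPM in the male line, and it also fell in lots 7 (by 0.88 ± 0.29), 11 (by 2.29 ± 0.26) and 12 (by 1.86 ± 0.28). In lot 8 it rose by 1.45 ± 0.24. Fbln5, whose product fibulin-5 binds Loxl1 in mice, rose by 1.88 ± 0.18 in lot 7 and fell by 1.55 ± 0.18 in lot 11. Of 10 collagen receptor and uptake genes, 7 passed the filter, with 3 higher and 1 lower in lot 6, 6 higher in lot 7 and 1 lower in lot 8. Those lots had 27.6%, 10.8% and 11.4% of all genes called. In lots 11 and 12, 0 of the 7 were called. The collagen-binding integrin chain Itga1 averaged 45.6 CPM in the lot 6 female and 0.0996 CPM in the lot 6 male line. Ddr2, a collagen receptor kinase, rose by 2.02 ± 0.31 in lot 7 and fell by 2.74 ± 0.37 in lot 8.

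The remaining fibrillar chains and lysyl oxidase were also counted. Of Col2a1, Col11a1, Col11a2, Col24a1, Col27a1 and Loxl4, 3 passed the filter. Col2a1, the type II chain of cartilage, averaged 14.3 CPM in the lot 12 female and 89.5 CPM in the lot 12 male line, a fall of 2.64 ± 0.62, and rose by 2.77 ± 0.75 in lot 8. Col11a1, a chain of type XI collagen, averaged 10.2 CPM in the lot 6 female and 0.161 CPM in the lot 6 male line. Loxl4 averaged 0.272 CPM in the lot 6 female and 6.68 CPM in the lot 6 male line, a fall of 4.50 ± 0.70, and also fell in lot 7, by 1.37 ± 0.46. The summed pericyte and smooth muscle markers, nearly all of them Acta2, were higher in the female line in lots 6 and 7, without overlap of libraries. They were at 14828 CPM against 4864 CPM in the male line of lot 6 and 7999 against 1353 in lot 7. The order was the opposite in lot 12, at 7913 CPM in the female and 10987 CPM in the male line, also without overlap. Libraries overlapped in lot 8, at 1858 CPM in the female and 2017 CPM in the male line, and in lot 11, at 4778 and 4232 CPM. Of the 3 markers tested, 0 were called in lots 11 and 12, where 4.33% and 3.80% of all genes were called. The part of these markers in the differences of the matrix genes was not tested.

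Over the 10 lines, collagen chains and lysyl oxidases moved together only weakly as groups. The mean of the 5 collagen genes and the mean of the 4 lysyl oxidase genes, each gene centred on its mean log2 CPM, had a Pearson r of 0.18 and a Spearman rho of 0.21. These 10 points are line sums that share lots in pairs, and r is given as a description. Lot 12 female, at 0.77 for collagens and 0.73 for lysyl oxidases, and lot 12 male, at 1.35 and 0.50, were high for both, and lot 7 male, at -1.30 and -0.55, was low for both. Lot 6 female, at -0.41 and 1.26, and lot 8 male, at 0.20 and -1.06, were apart in opposite ways. Without lot 12 the r was -0.15, without the 2 lines farthest from the median collagen mean (lot 7 male and lot 12 male) it was -0.11, and after removing each lot's mean it was -0.39. With replicate 1, 2 or 3 alone in each line it was -0.13, 0.24 and 0.47. The r between the groups thus rests on few lines.

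Single pairs of genes ranged widely. Over the 36 pairs of the 9 genes, the median r was 0.21 and 25 were above 0, beside a median of 0.0005 and 50.0% above 0 for all 74084878 pairs of genes tested. The median was 0.30 for the 10 pairs of collagen chains, 0.18 for the 20 pairs of a chain and an enzyme, and 0.17 for the 6 pairs of enzymes. An r of at least 0.7 was reached by 3 of the 36 pairs and by 2.69% of all pairs. These were Col5a1 with Lox at 0.81, Col3a1 with Col5a2 at 0.79 and Col3a1 with Loxl2 at 0.73. Leaving out each lot in turn gave 0.71 to 0.87 for Col5a1 with Lox, 0.55 to 0.86 for Col3a1 with Col5a2 and 0.68 to 0.78 for Col3a1 with Loxl2. Loxl1 was apart from the chains, with r below 0 for all 5 of them, from -0.57 with Col1a1 to -0.0084 with Col5a1. Col1a2 had r below 0 with 3 of the 4 enzymes and with Col3a1 and Col5a1. The genes most like the collagen mean among 6415 searched were Wdr70 (r 0.93), Ppic (0.93), Exog (0.91), Egln1 (0.90) and Ogfod1 (0.89), and those most like the lysyl oxidase mean were Rnf166 (0.96), Dysf (0.95), Pxmp4 (0.95), Fndc3b (0.94) and Rras (0.94), each over 10 lines. For single genes, the nearest were Sac3d1 for Col1a1 (r 0.94), Msln for Col1a2 (0.93), Dscc1 for Col3a1 (0.91), Sidt2 and Col12a1 for Col5a1 (0.95 and 0.94), Cst6 for Col5a2 (0.92), Klhdc3 for Lox (0.95), Dph7 for Loxl1 (0.92), Tram2 for Loxl2 (0.94) and Slc41a1 for Loxl3 (0.94).

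**Figure D4:**
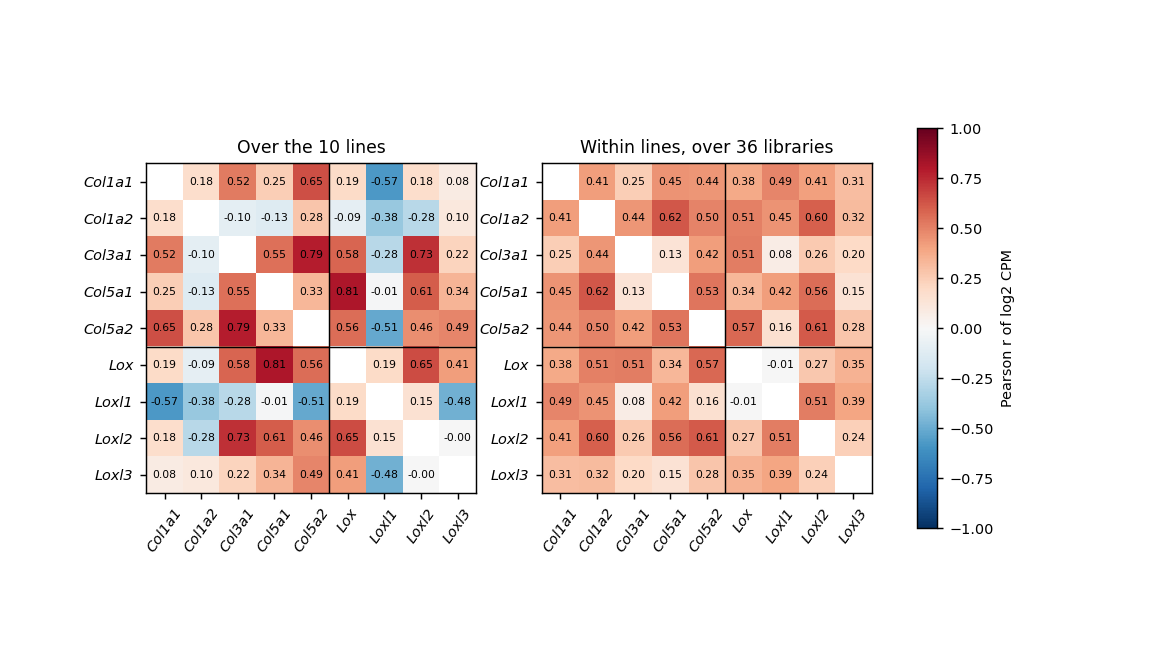
Pearson r of log2 CPM for each pair of the 9 genes, over the 10 line sums (left) and over the 36 libraries as deviations from their line mean (right), on a colour scale from -1 to 1. The left panel mixes signs, from -0.57 to 0.81, and the right panel is above 0 in 35 of 36 pairs.

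Within lines the picture was different, and these deviations of libraries from their line mean had not been used to choose the genes. Of the 36 pairs, 35 had an r above 0, with a median of 0.41, beside a median of -0.0005 and 49.9% above 0 for all pairs of genes. The highest were Col1a2 with Col5a1 at 0.62, Col5a2 with Loxl2 at 0.61 and Col1a2 with Loxl2 at 0.60, and the only pair not above 0 was Lox with Loxl1 at -0.0050. The mean of the collagen chains and the mean of the lysyl oxidases deviated together with an r of 0.78 and a Spearman rho of 0.75 over 36 libraries, with 26 degrees of freedom left by the line means. Leaving out each library in turn gave 0.73 to 0.83, leaving out each lot 0.70 to 0.87, and leaving out all replicate 4 libraries 0.67. The replicate 4 libraries, of lots 7, 8 and 11, stood apart: in 6 of 6 both means were above the line, by 0.020 to 0.80 for collagens and 0.043 to 0.38 for lysyl oxidases, as in 5 of the 18 other libraries of these lines. Their mitochondrial mRNA was 0.251% to 0.349% of counts, against 0.534% to 0.770% in those 18. Without them, 33 of 36 pairs had an r above 0 and the median was 0.29. Replicate 4 of lot 7 male was higher than its line by 0.80 for collagens and 0.38 for lysyl oxidases, and replicate 3 of lot 12 female by 0.76 and 0.54, on the log2 scale. Replicate 3 of lot 12 male was also higher for both, by 0.23 and 0.25. The female and male replicate 3 of lot 12 had the lowest mitochondrial share of their lines, at 0.520% and 0.461%. Both remain in the values without replicate 4. Replicate 3 of lot 7 male was lower for both, at -0.69 and -0.27. Without the 2 libraries farthest from the median collagen deviation (replicate 4 of lot 7 male and replicate 3 of lot 12 female), r was 0.68.

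**Figure D5:**
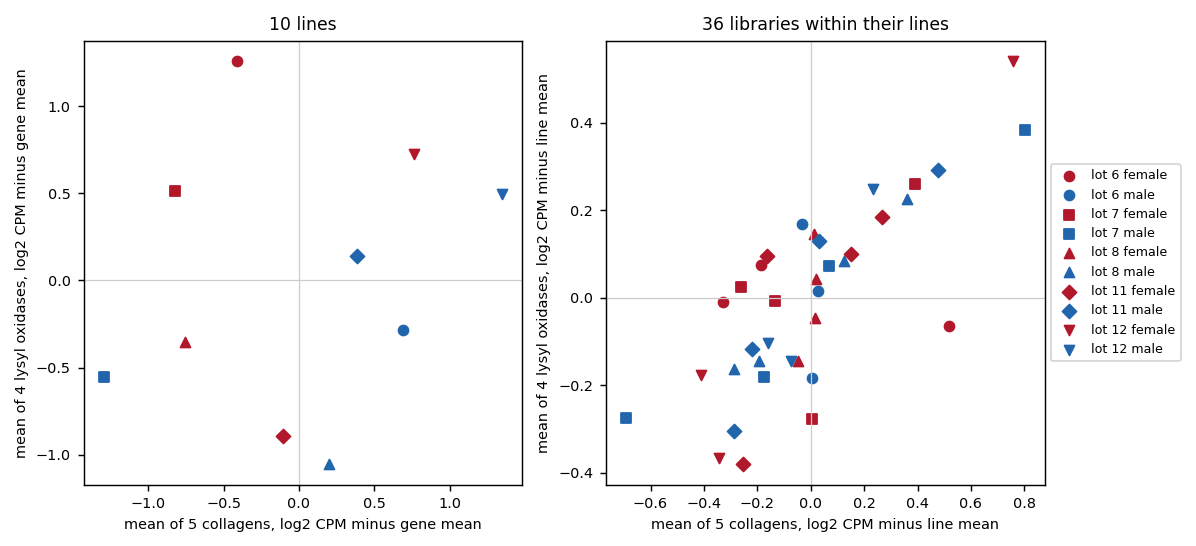
Mean of the 5 collagen genes (x) against mean of the 4 lysyl oxidase genes (y) in log2 CPM, for the 10 line sums centred on each gene's mean (left) and for the 36 libraries as deviations from their line mean (right). The lines scatter with an r of 0.18, and the libraries within lines follow each other with an r of 0.78.

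Other measures moved with the 9 genes within lines. The difference between long and short transcripts in a library, relative to its line, had an r of 0.73 with the mean of the 9 genes, the share of mitochondrial mRNA an r of -0.60 (-0.35 without the replicate 4 libraries), and the library total an r of -0.15. The members' transcripts are long, at 3297 to 8406 bases in the longest annotated form, and the median r with their mean was 0.14 for the longest 20% of genes (5176 bases or more) and -0.12 for the shortest 20% (1706 bases or fewer). After the trend with transcript length was subtracted in each library, the collagen and lysyl oxidase means still had an r of 0.74, 34 of 36 pairs were above 0 and their median was 0.30, and the r with the mitochondrial share was -0.58. The part of the mitochondrial share in these deviations was not tested. Matrix genes from the lists were also set against the mean of the 9 genes within lines: 14 of 18 folding genes had an r above 0 (median 0.21), 8 of 11 export genes (0.27), 4 of 6 processing genes (0.20), 12 of 15 fibril regulators (0.17), 12 of 14 elastic fibre genes (0.32) and 6 of 7 receptor and uptake genes (0.26), beside a median of 0.0094 for all genes other than the 9. The list nearest to the 9 genes had no such lean, with Col11a1 at 0.43, Col2a1 at 0.0082 and Loxl4 at -0.31. The highest were Fn1, encoding fibronectin, at 0.78, Fbn1, encoding fibrillin-1, at 0.77, Fbln2, encoding fibulin-2, at 0.74, Col12a1, a fibril-associated collagen, at 0.71 and P4ha1, a prolyl hydroxylase subunit, at 0.70. Serpinh1 was at 0.61, Mmp14, a membrane-bound collagenase, at 0.60 and Plod2, a lysyl hydroxylase, at 0.57. These 36 deviations share the library in which both genes were counted, and no p is given for them.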

How the data were processed

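BRB-seq libraries of polyadenylated RNA from Nf1-/- DNp53 mouse astrocyte lines were analysed from a deposited table of raw counts per Ensembl gene, whole numbers per the labels and the values. Per the submitters' processing notes, the authors used cutadapt 2.10, STAR 2.7.6a and Subread 2.0.2 with the GRCm38 genome. Collapsing of molecular identifiers and the strand setting are not given in the sources used here, so floors cover counting error only. Of 46078 genes, 45143 matched the annotation by identifier, and the rest held 0.0295% of counts. The median library total was 6061120. Chi-square per degree of freedom was 5.47 to 22.3 over the 48 pairs within a line, so no library was counted as a repeat.

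The 9 genes, the pathway lists and the cell type markers were chosen with earlier results of these data known. Within lots, edgeR 4.0.16 (quasi-likelihood, TMM, its expression filter) was fitted to 36 libraries with 1 coefficient per line; across lots it was fitted to 10 line sums with lot and sex. Fold changes are female over male. P-values were adjusted by Benjamini-Hochberg over all genes tested, with a threshold of 0.05. Correlations use log2 CPM with a prior count of 2, over line sums or as deviations from line means. Genes like a pattern were the 5 (for single genes 2) with the highest r among those whose mean log2 CPM reached 3, without predicted genes and pseudogenes; the text gives the first for most single genes. List genes named are among the up to 4 of smallest p per lot, and a gene so named in 1 lot may be given in others.

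Residuals of female and male libraries with the same number correlated at 0.131 to 0.227 in all 3 pairs of lot 12. In lots 6, 7, 8 and 11 they ranged from -0.026 to 0.092 and the numbers were not taken to pair libraries. The replicate 4 pairs of lots 7, 8 and 11 were at 0.075, 0.089 and 0.092. Alternatives were other scalings and filters, DESeq2 1.42.0, limma 3.58.1 voom, the lot's libraries alone, a replicate block, leaving out libraries or lots, other prior counts and, chosen after seeing the data, removal of the trend with transcript length and library totals within lines. Methods were tested on simulated data with 200 changed genes and no other differences between lines, so that test does not cover variation among lines or litters. Software was R 4.3.3 and Python 3.11.15 with numpy 2.4.6, matplotlib 3.10.9 and pandas 2.3.3. Promoter sequences are from RefSeq.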

Additional observations from a re-analysis of the deposited data

Results flagged for a closer look

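In groups of 4 libraries, 3 of 54 gene and line groups had a library far from the other 3, and chance gives about 1 in 20. Col1a1 was at 108.4 CPM in replicate 4 of the lot 7 female line, where the other libraries were at 37.3 to 42.8 CPM. Loxl2 was at 43.88 CPM in the same library, against 22.0 to 25.2 CPM in the others. Lox was at 48.42 CPM in replicate 1 of the lot 8 female line, with the others at 40.6 to 41.3 CPM.

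The difference between the female and the male line differed among the 5 lots for 7 of the 9 genes in the edgeR interaction test over 36 libraries, as it did for 29.9% of all genes. These contrasts were in view when the genes were chosen, so the values are descriptions. Adjusted p was 9.091e-12 for Col1a1, whose log2 differences ran from -3.41 to 1.51 with 1 lot called higher and 2 lower, and 5.114e-09 for Col1a2, from -4.34 to 0.70 with 2 lots called lower. It was 6.268e-07 for Col5a1, from -0.23 to 2.11 with 2 lots called higher. Among the enzymes it was 5.645e-10 for Lox, called higher in 3 lots and lower in 1, and 5.775e-14 for Loxl1 and 3.168e-10 for Loxl2, each called higher in 2 lots and lower in 2. For Loxl3, called higher in 2 lots, it was 0.0152. Col3a1 (0.0525) and Col5a2 (0.0703) missed the threshold.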

How the results depend on the processing

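None of the 21 called differences of a gene in a lot changed sign under any alternative, and 15 kept their call throughout; the cause of the changes below was not tested. With no filter, 7 of the 9 genes were called in lot 11, beside 3.12% of all genes, and 5 in lot 12, beside 2.51%. In lot 12 the fit of its libraries alone called 1 (and 106 genes in all, 1.01%, against 463) and the replicate block 6. The block changed the count of all genes to 3553, 1684, 1708, 668 and 667 in lots 6, 7, 8, 11 and 12, from 3354, 1319, 1388, 527 and 463 without it, and outside lot 12 it added Loxl1 in lot 7 and Col1a1 in lot 11 and ended no call. Without the replicate 4 libraries 878 genes were called in lot 7. Across lots, all genes called numbered 3 with no filter, 60 with DESeq2, 491 with limma voom and 1 with no lot block. Genes of the 9 called numbered 3 with limma voom, beside 4.03% of all genes, in a fit on libraries with 1 within-line correlation for all genes. The r of collagen and lysyl oxidase means over lines was -0.1492 without lot 12, -0.1082 without the 2 farthest lines, -0.3853 with lot means removed, 0.40 without lot 6 and 0.14 with the length trend removed. Within lines it was 0.6661 without replicate 4 libraries.

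Differences that were not called and changed sign were Loxl3 in lot 6 with library totals (0.076), Col3a1 in lot 12 with limma voom (-0.15) and with the replicate block (-0.11), and Col1a2 (0.071) and Col3a1 (0.16) in lot 7 without replicate 4 libraries. Across lots they were Loxl1 (-0.11) and Loxl2 (-0.38) without lot 6, Loxl2 without lot 7 (-0.0035), and Col3a1 (0.057) and Loxl1 (-0.17) without lot 8. Leaving out each library of a lot in turn gave, for values that changed sign, -0.35 to 0.022 for Col5a2 in lot 6, -0.044 to 0.12 for Loxl3, -0.54 to 0.22 for Col1a2 and -0.82 to 0.11 for Col3a1 in lot 7, -0.28 to 0.041 for Col5a1 in lot 8, and -0.60 to 0.36 for Col3a1 and -0.48 to 0.014 for Col5a1 in lot 12. The number of the 9 genes called ranged from 2 to 5 in lot 11 when 1 library was left out, with 2 without replicate 3 of the female line, 2 to 4 in lot 12, 6 to 7 in lot 6 and 3 to 5 in lots 7 and 8.

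Library totals in place of TMM moved the median of all genes in lot 6 to 0.29 from 0.063, and the share of calls that were higher in the female line to 68.9% from 49.0% in lot 6, 60.2% from 50.0% in lot 7, 68.6% from 56.2% in lot 8 and 57.2% from 45.8% in lot 12. Depth limits Col3a1 most, at as few as 2 counts in a library.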
